A study of Mus musculus with 18 samples.

Results

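Heavy polysomes were compared with medium polysomes in acute slices of hippocampus and cortex after homoharringtonine (HHT). The 8 libraries taken for this were the 4 heavy and the 4 medium HHT libraries of the 18 libraries in the series, chosen by their labels and paired by lysate. The slices came from male C57BL/6N mice at postnatal day 28 to 35, and were held for 30 min with 20 µM HHT at the same temperature as vehicle (DMSO) slices. The 4 HHT lysates were WT lysate 1, WT lysate 2, Fmr1 KO lysate 1 and Fmr1 KO lysate 2, and 1 lysate per genotype had received vehicle. Fmr1 KO animals lack the RNA-binding protein FMRP, and their line was backcrossed to C57BL/6. Each lysate pooled 10 slices from 2 to 3 mice, so a replicate is a pool and not an animal. The same lysate was run on a 15 to 45% sucrose gradient and its medium and heavy pools were picked by where FMRP appeared on immunoblots, a signal that KO lysates lack; how their pools were matched is not given in sources used here. A library was made from 200 ng RNA of a pool, so every value below is a share of that pool's RNA and not an amount.

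An mRNA sediments deeper in sucrose the more ribosomes it carries, and a longer coding sequence has room for more of them. HHT stops newly assembled ribosomes at the start of the coding sequence, while ribosomes already past that point can finish and leave. FMRP is known to associate with polysomes in brain, and its loss causes fragile X syndrome. The comparison addresses which mRNAs sat in the heaviest ribosome-bearing material, relative to medium polysomes, once initiation had been blocked.

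Total counts ran from 7461866 to 11008211 over the 8 libraries, and levels are given as counts scaled to a common library size of 1000000 (CPM) scaled by the trimmed mean of M values (TMM). Every defining brain marker that was looked up was among the genes of the deposited table. All 13973 genes of that table have values above 0 in every library. Presence of a listed marker in all 8 libraries was thus fixed beforehand and is no test of the tissue. Slc17a7 of excitatory neurons lay between 1654 and 2227 CPM, Mbp of oligodendrocytes between 668 and 958 CPM, and Cldn5 of vessels between 1.56 and 5.12 CPM. The targeted gene was lower in the KO libraries. Fmr1 was at 17.2 and 22.2 CPM in WT medium polysomes and at 6.78 and 6.19 CPM in KO medium polysomes. In heavy polysomes it was at 13.3 and 17.6 CPM in WT and at 6.27 and 4.39 CPM in KO, so the genotypes did not overlap in either pool.

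The heavy chain and a light chain of the motor complex dynein lie at opposite ends of coding length, and they moved in opposite directions. Whether length accounts for this pair was not tested. The coding sequence of the light chain Dynll2 (chromosome 11, 87979525 to 87987533 in GRCm38, the assembly also called mm10) is 267 bases. Neurogranin, Nrgn (chromosome 9, 37544492 to 37552904), a calmodulin-binding protein of dendritic spines, is encoded by 234 bases. The dynein heavy chain Dync1h1 (chromosome 12, 110601452 to 110666945) has a coding sequence of 13932 bases. The first 2 sequences are printed whole and the first 267 bases of Dync1h1, which are 1.92% of its coding sequence, stand beside them for scale. All come from GENCODE M21 transcripts without the stop codon, and capitals mark the start codon.
Dynll2: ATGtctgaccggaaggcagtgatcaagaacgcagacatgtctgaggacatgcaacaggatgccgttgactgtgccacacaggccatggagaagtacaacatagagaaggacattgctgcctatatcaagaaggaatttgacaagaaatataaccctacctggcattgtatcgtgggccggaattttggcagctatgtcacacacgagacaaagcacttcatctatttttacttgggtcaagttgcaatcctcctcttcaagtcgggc
Nrgn: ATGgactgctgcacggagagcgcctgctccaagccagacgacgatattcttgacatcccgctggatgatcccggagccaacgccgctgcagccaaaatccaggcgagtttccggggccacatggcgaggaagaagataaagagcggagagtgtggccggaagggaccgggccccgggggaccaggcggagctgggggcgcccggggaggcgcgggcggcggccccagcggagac
Dync1h1: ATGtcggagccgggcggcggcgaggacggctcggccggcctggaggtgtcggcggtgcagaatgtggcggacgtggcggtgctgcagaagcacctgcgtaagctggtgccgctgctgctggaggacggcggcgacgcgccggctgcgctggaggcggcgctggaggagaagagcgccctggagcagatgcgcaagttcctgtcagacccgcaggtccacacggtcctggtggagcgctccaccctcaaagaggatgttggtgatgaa

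In the 4 medium libraries Dync1h1 was at 559 and 281 CPM in WT lysates 1 and 2 and at 430 and 198 CPM in KO lysates 1 and 2. In the heavy libraries of the same lysates it was at 3619, 3441, 3108 and 3539 CPM. Every heavy library stood above every medium library, and the heavy values were close together while the medium values were spread. The difference, heavy minus medium, was 3.32 ± 0.18 on the log2 scale (SE, 4 lysates), a ratio of 10.0 (edgeR quasi-likelihood test with lysate as a block, Benjamini-Hochberg adjusted p = 4.19e-09). Dynll2 was at 494, 549, 581 and 603 CPM in medium polysomes and at 299.6, 228, 322 and 249 CPM in heavy polysomes, in the same order of lysates. It was lower in heavy polysomes in all 4 lysates, without overlap, by -1.03 ± 0.09 (edgeR adjusted p = 3.61e-07). Nrgn went from 2525, 2989, 2829.99 and 3256 CPM in medium polysomes to 1534, 1361, 1629 and 1314 CPM in heavy polysomes. Its difference was -0.99 ± 0.09 (edgeR adjusted p = 3.8e-07), again with no overlap between the pools.

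**Figure D1:**
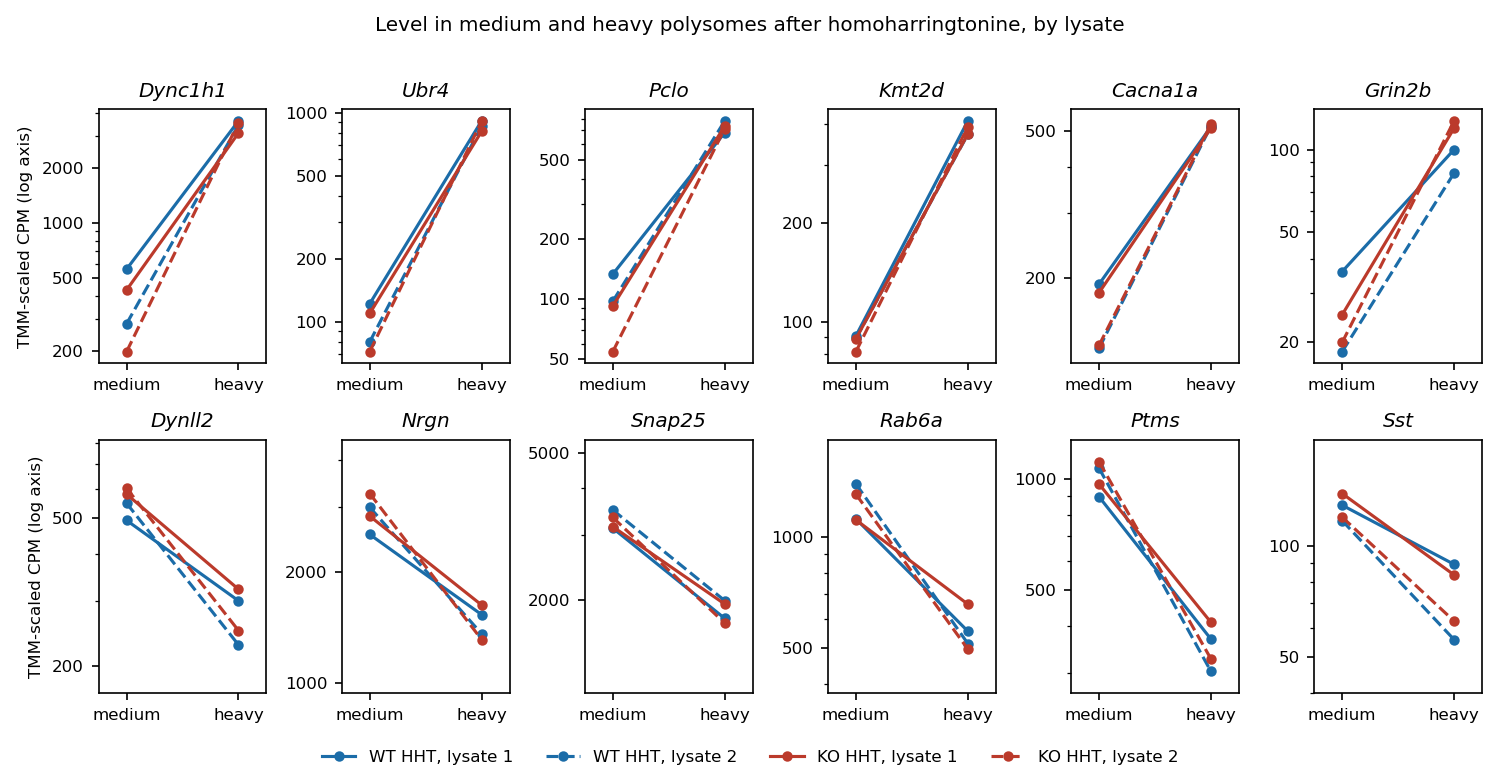
TMM-scaled CPM (log axis) of 12 genes in medium and heavy polysomes after HHT, 1 line per lysate, blue for WT and red for Fmr1 KO, solid for lysate 1 and dashed for lysate 2. In the upper row every heavy value lies above every medium value, as for Dync1h1 (198 to 559 CPM in medium, 3108 to 3619 CPM in heavy), and in the lower row every heavy value lies below.

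Differential abundance was tested for 13826 genes, of which 6765 (48.9%) differed between the pools. After HHT 3370 of them rose in heavy polysomes (24.4% of genes tested) and 3395 fell (24.6%), at an adjusted p under 0.05. The median difference over all genes was -0.03 and the median SE was 0.11 on the log2 scale. The 4 heavy libraries all stood above the 4 medium libraries for 2981 genes (21.6%) and all below for 2823 genes (20.4%). Large rises outnumbered large falls: 363 genes rose and 138 fell at least 2-fold, and 36 rose and 0 fell at least 4-fold. The split of calls depends on the scaling, because scaling by total counts shifted the median of all genes by -0.17 and gave 2173 higher and 5393 lower. Every change below is relative to TMM.

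Among the 12 genes with the largest rise under the selection rule, 11 had a coding sequence over 11000 bases. They rose between 5.42-fold (Vps13d, a lipid transfer protein) and 10.0-fold (Dync1h1). Birc6, Ubr4, Herc1, Herc2, Mycbp2 and Huwe1 are very large ubiquitin ligases, and their log2 differences ran from 2.81 (Huwe1) to 3.24 (Birc6). Trrap, a scaffold of histone acetyltransferase complexes, rose by 2.80 ± 0.13 and Ryr2, a calcium release channel of the endoplasmic reticulum, by 2.53 ± 0.11. The exception in length was Sdk2, a synaptic cell adhesion protein with 6528 coding bases. Sdk2 was at 18.6, 10.3, 17.2 and 12.4 CPM in medium polysomes and at 84.8, 66.7, 79.2 and 91.9 CPM in heavy polysomes. The heavy libraries of Sdk2 were all above its medium libraries, with a difference of 2.48 ± 0.12 (edgeR adjusted p = 1.07e-09).

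The 12 largest falls had coding sequences of 213 to 960 bases and ratios of heavy to medium from 0.32 to 0.418. Bex1, Bex4, Tceal8 and Wbp5 are small X-linked proteins of the related BEX and TCEAL families. Bex1 has a close paralog and its estimated counts are uncertain. Bex4 had the largest fall, -1.65 ± 0.15, from 13.3 to 16.4 CPM in medium polysomes to 3.53 to 5.57 CPM in heavy polysomes. Ptms, a small acidic nuclear protein, was at 895, 1069, 969 and 1113 CPM in medium polysomes and at 369.5, 302, 410.2 and 327 CPM in heavy polysomes. The libraries of Ptms did not overlap between pools, and the fall was -1.53 ± 0.10 (edgeR adjusted p = 1.33e-08). Other genes of the 12 were Cxcl16, a chemokine (-1.40 ± 0.15), Lsm2, a subunit of an RNA-binding ring (-1.30 ± 0.16), and Timp3, a secreted inhibitor of metalloproteinases (-1.26 ± 0.11).

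The lysates numbered 2 had a wider spread of differences than those numbered 1 in both genotypes. Gene by gene, the shift from number 1 to number 2 correlated only weakly between WT and KO (r = 0.159). The interquartile range of the difference over genes was 0.51 in WT lysate 1 and 0.504 in KO lysate 1, against 0.757 in WT lysate 2 and 0.736 in KO lysate 2. KO lysate 2 gave the highest difference for all 12 of the largest rises, and WT lysate 2 or KO lysate 2 gave the lowest difference for all 12 of the largest falls. With the 2 lysates numbered 1 alone, 2533 genes rose and 2019 fell, and with those numbered 2 alone 3234 rose and 3074 fell. What sets the numbers apart was not tested.

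**Figure D2:**
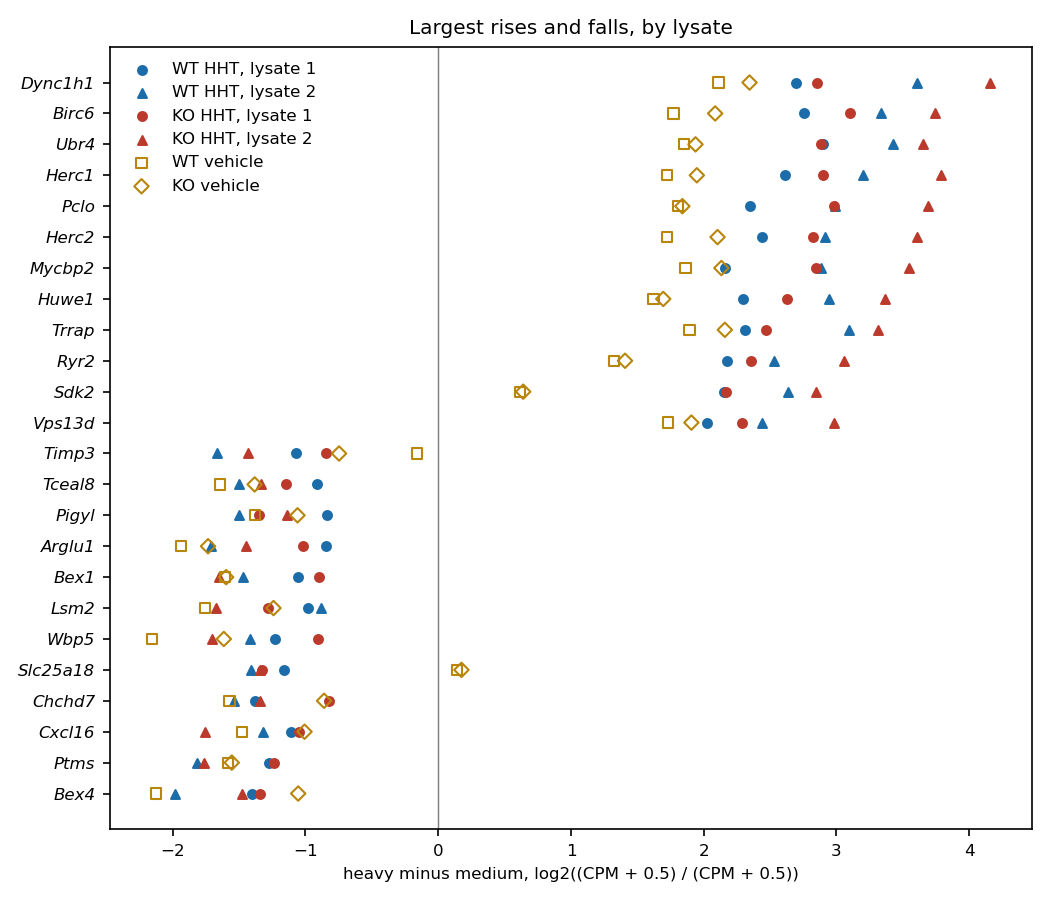
Heavy minus medium difference (log2 of the ratio of CPM + 0.5) of the 12 largest rises and 12 largest falls, with filled points for the 4 HHT lysates and open points for the 2 vehicle lysates. All HHT points of the rises lie above 2 and all HHT points of the falls lie below 0, while the vehicle points of Slc25a18 lie at 0.14 and 0.17.

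Very large ubiquitin ligases, which tag proteins for degradation, all rose. Of 14 measured members 14 rose and 0 fell, with a median of 2.30 beside -0.03 over all genes, and the medians in the 4 lysates ran from 1.81 to 2.76. Ubr4 was at 122, 80.3, 109.9 and 72.1 CPM in medium polysomes and at 915, 866, 815 and 910.4 CPM in heavy polysomes, with no overlap. The table's Gm15800, an older name of Hectd4, rose by 3.09 ± 0.12. Spectrins, ankyrins and plakins, which tie membranes and filaments together, also moved as a whole: 15 of 15 rose, with a median of 1.00. Dst rose by 2.35 ± 0.11, Macf1 by 2.09 ± 0.10, Plec by 2.01 ± 0.10 and Ank2 by 1.82 ± 0.10. Of 37 dynein, kinesin and myosin genes 23 rose and 7 fell, with a median of 0.29. In that list Dync2h1 (2.14 ± 0.13) and Kif1a (1.40 ± 0.09), which carries synaptic vesicle precursors, rose, while the light chain Dynll1 fell by -0.88 ± 0.10.

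Enzymes that write and read chromatin marks were mostly higher in heavy polysomes, and they have long coding sequences. Median coding lengths were 4150.5 bases for histone methyltransferases and demethylases and 4713 for chromatin remodelers and acetylation enzymes. Among all genes with coding sequences of 3555 to 26397 bases, 77.4% rose, with a median of 0.67. Kind of enzyme was not tested apart from length. Of 42 histone methyltransferases and demethylases 33 rose and 0 fell, with a median of 0.46. Kmt2d, a histone H3 lysine methyltransferase, was at 90.6, 88.9, 88.8 and 81.1 CPM in medium polysomes and at 409, 372, 373 and 392 CPM in heavy polysomes. The values of Kmt2d were tight within each pool and did not overlap (2.14 ± 0.07, edgeR adjusted p = 1.27e-10). Setd2, a histone methyltransferase that acts on transcribed genes, was at 56.5, 55.9, 40.8 and 36.6 CPM in medium polysomes. In heavy polysomes Setd2 was at 81.8, 106, 89.3 and 107 CPM, above all medium libraries (1.03 ± 0.12, edgeR adjusted p = 4.52e-06). Of 54 chromatin remodelers and acetylation enzymes 39 rose and 5 fell, with a median of 0.65. The acetyltransferase Crebbp rose by 1.54 ± 0.07 and the remodeler Chd5 by 1.47 ± 0.08, and the deacetylase Hdac2 fell by -0.51 ± 0.08.

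Splicing factors went both ways. Of 71 measured members 17 rose and 35 fell, with a median of -0.22. Srrm2 (2.05 ± 0.13), Prpf8 (1.69 ± 0.14) and Son (1.37 ± 0.10), which have coding sequences of 7005 to 8109 bases, rose. Srsf5, an SR protein with a coding sequence of 807 bases, fell by -0.93 ± 0.08.

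Synaptic gene lists differed in how many members rose, and they differed in coding length too. Median coding lengths were 2668.5 bases for postsynaptic scaffolds, 2940 for synaptic adhesion genes, 3018 for cadherins and 1708.5 for presynaptic vesicle genes. Kind of protein was not tested apart from length. Of 34 postsynaptic density scaffolds 26 rose and 3 fell (median 0.51), and Shank3, a master scaffold linked to autism, rose by 1.21 ± 0.07. Of 59 synaptic adhesion and L1 family genes 38 rose and 2 fell (median 0.47), led by Lphn1 (1.56 ± 0.09), Tenm4 (1.71 ± 0.11) and Tenm1 (2.17 ± 0.15). Of 35 cadherins and protocadherins 29 rose and 0 fell (median 0.55). The 46 presynaptic vesicle genes held 21 that rose and 14 that fell, which turned to 15 and 20 under scaling by total counts (median 0.04, then -0.13). In the presynaptic list the active zone scaffold Bsn rose from 354, 239.6, 356 and 289.6 CPM to 1386, 1288, 1407 and 1663 CPM (2.22 ± 0.09). Snap25, a membrane fusion protein, fell from 3124, 3498, 3152 and 3339 CPM to 1783, 1991, 1950 and 1732 CPM (-0.82 ± 0.07). Neither gene's pools overlapped. Sncb, a small synuclein, fell by -1.10 ± 0.09.

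Glutamate receptors, voltage-gated sodium and calcium channels and potassium channels rose more often than they fell, and GABA receptors did not. Median coding lengths were 2779.5, 3462, 1722 and 1420.5 bases, in that order. Kind of channel or receptor was not tested apart from length. Of 24 glutamate receptor genes 16 rose and 0 fell, with a median of 0.43. Grin2b, an NMDA receptor subunit, was at 36, 18.4, 25.1 and 19.9 CPM in medium polysomes and at 100.02, 82.1, 119.7 and 127 CPM in heavy polysomes. All heavy libraries exceeded all medium libraries for Grin2b (2.13 ± 0.14, edgeR adjusted p = 1.64e-08), and Grin2a rose by 1.35 ± 0.12. Of 27 voltage-gated sodium and calcium channel genes 17 rose and 2 fell (median 0.46). Cacna1a, the pore of P/Q-type calcium channels, rose by 1.71 ± 0.10, while the small sodium channel subunit Scn3b fell by -0.67 ± 0.08. Of 45 potassium channel genes 27 rose and 6 fell (median 0.34). Kcnc1, a fast delayed rectifier, was at 328, 269, 298 and 228 CPM in medium polysomes and at 630.2, 566, 653 and 623 CPM in heavy polysomes (1.15 ± 0.08). The auxiliary subunits Kcnip4 (-0.56 ± 0.08) and Kcnip1 (-0.56 ± 0.10) fell. Of 14 GABA receptor genes 2 rose and 4 fell (median -0.07): Gabbr2 of the metabotropic receptor rose by 1.23 ± 0.11, and Gabra3 (-0.58 ± 0.07) and Gabra4 (-0.60 ± 0.08) fell.

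Most small GTPases and neuropeptide precursors were lower in heavy polysomes. Of 48 small GTPases, molecular switches of traffic and cytoskeleton, 41 fell and 1 rose (median -0.54). Rab6a, a Golgi GTPase, was at 1117, 1388, 1110.02 and 1302 CPM in medium polysomes and at 556, 515, 657 and 497 CPM in heavy polysomes. The pools of Rab6a did not overlap (-1.15 ± 0.10, edgeR adjusted p = 2.29e-07), and Rhoa fell by -0.95 ± 0.08 and Arf4 by -0.92 ± 0.08. The member that rose, Rab11b (0.20 ± 0.07), did not pass without WT lysate 2 (0.18), KO lysate 1 (0.20) or KO lysate 2 (0.20), nor under scaling by total counts (0.02) or with limma (0.22). Of 23 neuropeptide and granin precursors 19 fell and 0 rose (median -0.55). Sst, the somatostatin precursor, was at 129, 117, 138 and 119 CPM in medium polysomes and at 89, 55.8, 83.4 and 62.6 CPM in heavy polysomes. The fall of Sst was -0.81 ± 0.09, that of Cck -0.79 ± 0.10 and that of Scg3 -0.90 ± 0.09.

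Nuclear-encoded mitochondrial proteins and ribosomal proteins also lay lower. Of 75 respiratory chain genes 56 fell and 2 rose (median -0.37), among them Uqcrq of complex III (-1.04 ± 0.10), cytochrome c Cycs (-0.79 ± 0.08) and Cox6b1 (-0.85 ± 0.09). Of 77 mitochondrial ribosomal protein genes 35 fell and 0 rose (median -0.32), and of 81 cytosolic ribosomal protein genes 39 fell and 0 rose (median -0.23). Rpl27 was at 39.5, 39.5, 40.2 and 45.7 CPM in medium polysomes and at 26.1, 25.5, 29.3 and 27.7 CPM in heavy polysomes, a fall of -0.60 ± 0.09 with no overlap. Ribosomal protein genes have many near-identical pseudogenes, so their estimated counts are uncertain. Of 31 proteasome subunits 14 fell and 1 rose (median -0.18). Translation factors held 25 that fell and 6 that rose of 52 (median -0.19). The initiation factors Eif1 (-1.09 ± 0.09) and Eif1a (-1.09 ± 0.10) fell, and the long scaffolds Eif4g3 (1.02 ± 0.09) and Eif4g1 (0.88 ± 0.08) rose.

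Stress and activity genes did not move together. Of 41 immediate early genes 11 rose and 19 fell (median -0.17). Jun was at 297, 301, 228 and 225 CPM in medium polysomes and at 654, 625, 584 and 578 CPM in heavy polysomes. The rise of Jun, a transcription factor with 1002 coding bases, was 1.23 ± 0.07 (edgeR adjusted p = 9.22e-09) with no overlap. Gadd45b, a growth arrest protein, fell by -1.06 ± 0.07. Of 31 genes of the integrated stress response or with upstream reading frames 4 rose and 14 fell (median -0.18), with the kinase Eif2ak4 up by 1.04 ± 0.10 and the antizyme inhibitor Azin1 down by -0.69 ± 0.08. Of 55 genes of translocation and folding in the endoplasmic reticulum 10 rose and 25 fell (median -0.19), and the chaperone Hspa5 fell by -0.74 ± 0.08. Of 38 lysosomal genes 8 rose and 10 fell (median -0.07), near the shares over all genes (24.4% and 24.6%). Of 27 sterol synthesis genes 12 rose and 9 fell (median -0.02), turning to 9 and 12 with a median of -0.20 under total counts. Among the sterol synthesis genes Fasn rose by 1.65 ± 0.10.

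Of the remaining lists, 5 had medians between 0.03 and 0.15, and mitochondrial carriers lay lower. For extracellular matrix and integrins 20 of 57 rose and 8 fell (median 0.15, -0.02 under total counts), with Reln, a secreted guidance protein, up by 2.01 ± 0.13. For microtubule proteins and tubulins 14 of 36 rose and 8 fell (median 0.03, -0.15 under total counts), with Map1b up by 1.90 ± 0.13. For sodium and calcium pumps 6 of 13 rose and 3 fell (median 0.15, -0.02 under total counts). For aminoacyl-tRNA synthetases 8 of 37 rose and 5 fell (median 0.09, -0.08 under total counts). In these 4 lists more members fell than rose under total counts. For noncoding RNAs and snoRNA hosts 5 of 33 rose and 6 fell (median 0.05, -0.13 under total counts), and the snoRNA host Snhg5 fell by -1.19 ± 0.16. Of 34 mitochondrial carrier and import genes 1 rose and 19 fell (median -0.26), and Timm10 fell by -1.06 ± 0.13.

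**Figure D3:**
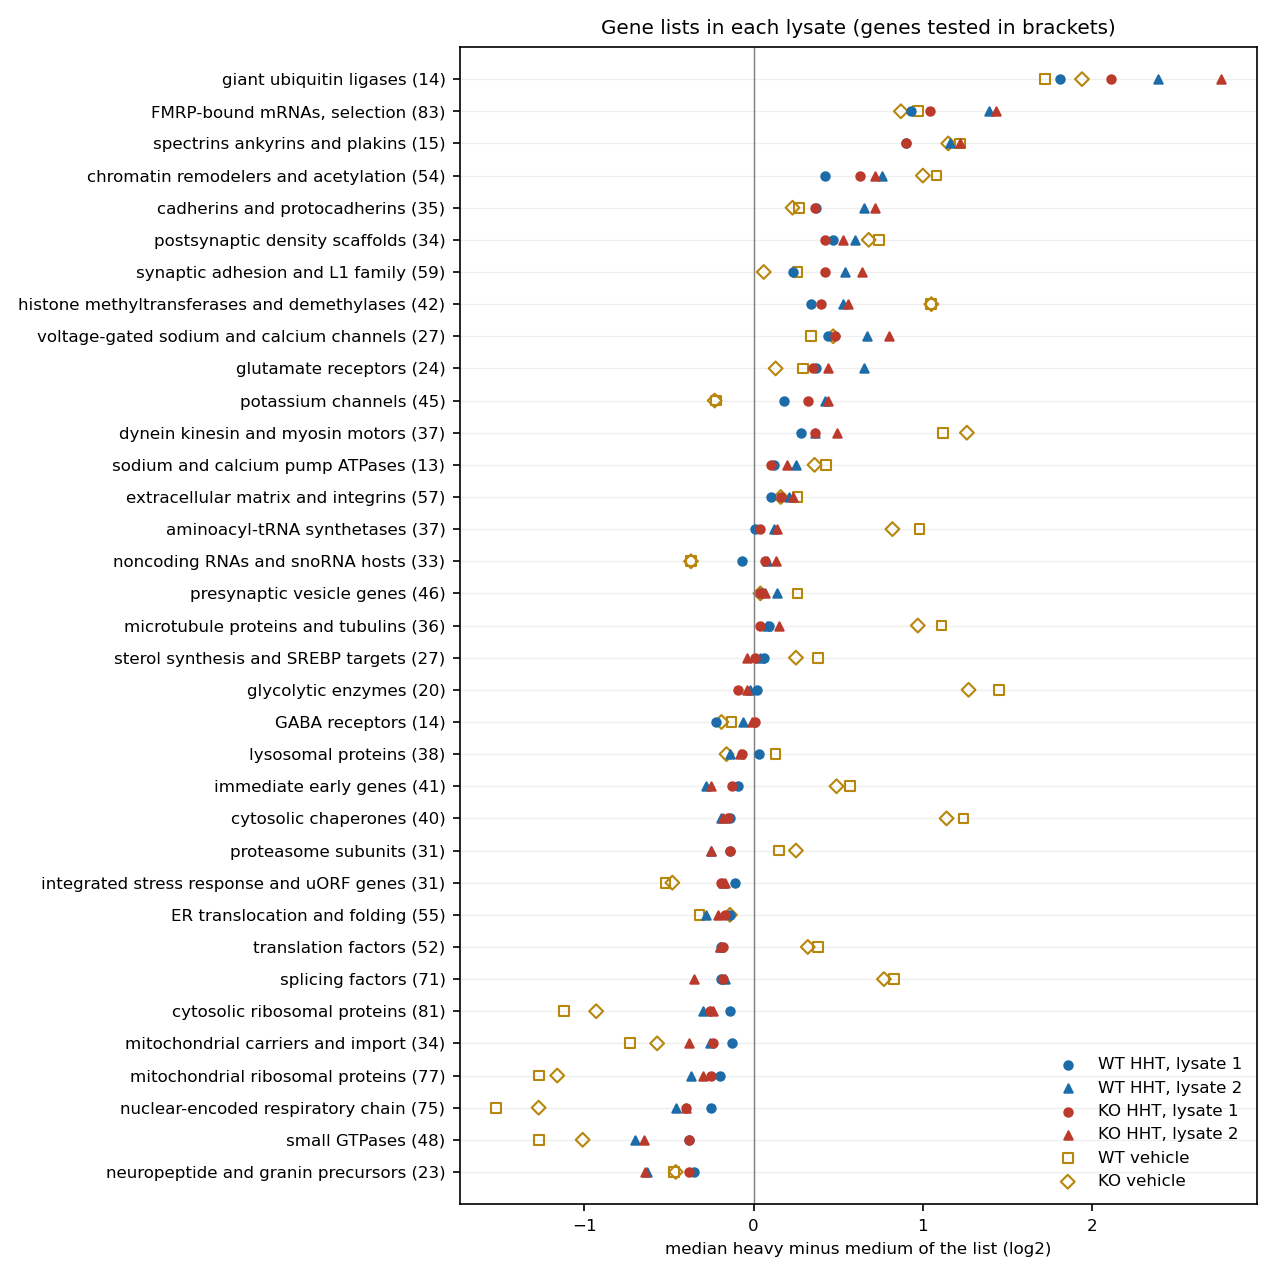
Median heavy minus medium difference (log2) of 35 gene lists in each of the 4 HHT lysates (filled) and the 2 vehicle lysates (open), ordered by the median after HHT. Giant ubiquitin ligases lie at the top (1.81 to 2.76 after HHT) and neuropeptide precursors at the bottom, and glycolytic enzymes lie near 0 after HHT but at 1.45 and 1.27 with vehicle.

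The difference was ordered by coding length across genes. Genes with a coding sequence were put in 10 bins of nearly equal size. In the shortest bin (75 to 558 bases) 23 of 1345 genes rose and 833 fell, with a median of -0.43. In the bin of 1434 to 1677 bases 226 of 1326 rose and 245 fell, with a median of -0.01. In the longest bin (3555 to 26397 bases) 1037 of 1340 rose and 7 fell, with a median of 0.67. The median rose from each bin to the next, and it did so in all 4 lysates. Over 13392 genes within a lysate, Spearman's rho between coding length and the difference was 0.518 in WT lysate 1, 0.60 in WT lysate 2, 0.601 in KO lysate 1 and 0.587 in KO lysate 2. These correlations are across genes of the same 2 libraries, and genes are not independent replicates. The length of the 5' untranslated region had a rho between -0.028 and 0.009, and that of the 3' untranslated region between 0.112 and 0.235.

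Length did not sort every list alike. Potassium channel genes had a median coding length of 1722 bases and a median difference of 0.34, while the bin of 1680 to 2049 bases had a median of 0.08. Neuropeptide precursors, with a median length of 744 bases, had -0.55, and the bin of 561 to 783 bases had -0.32. Cytosolic ribosomal protein genes, with a median length of 453 bases, had -0.23, and the bin of 75 to 558 bases had -0.43. Genes whose proteins carry a predicted membrane segment had medians close to those of other genes of like length after HHT. Among genes with coding sequences of at least 2577 bases, the median was 0.44 for 1473 genes whose protein has no hydrophobic segment and 0.49 for 1201 genes with at least 1. In vehicle lysates the same genes had medians of 0.97 and 0.87 without a segment and 0.47 and 0.43 with a segment (WT and KO). A segment was a window of 19 residues with a mean Kyte-Doolittle value of at least 1.6.

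**Figure D4:**
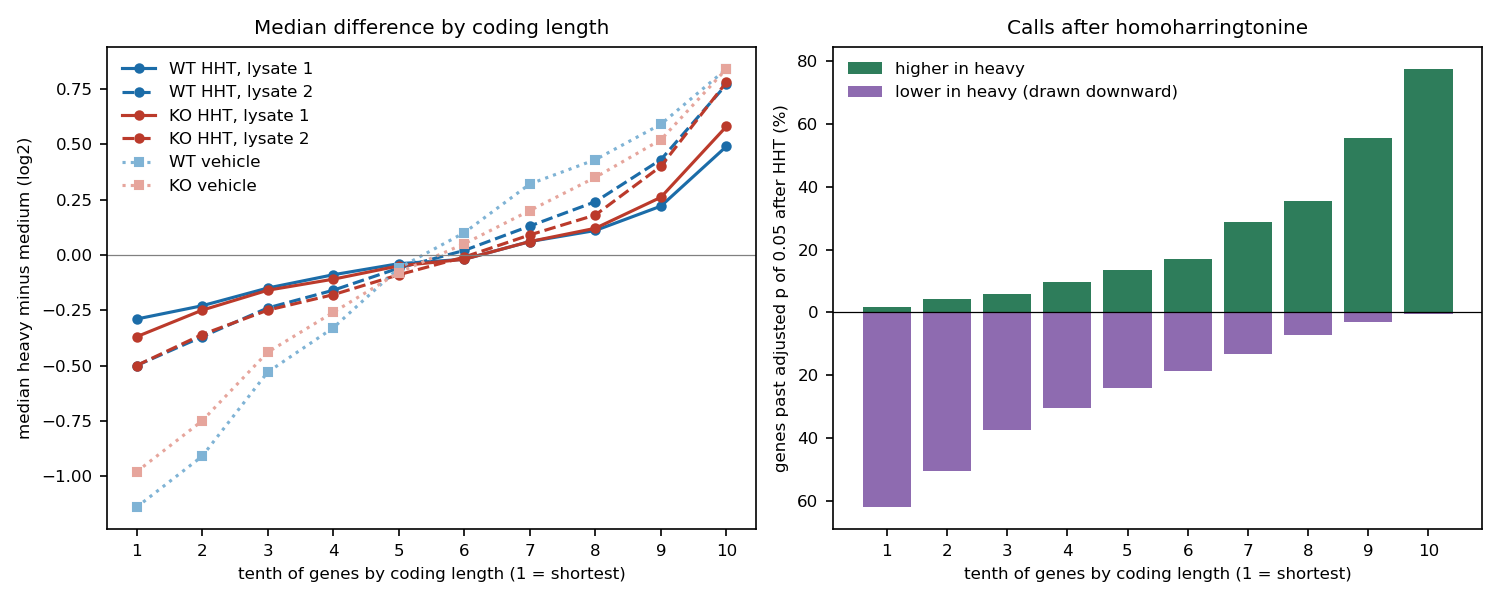
Left, median heavy minus medium difference (log2) in 10 bins of coding length (1 = shortest), 1 line per lysate; right, the percentage of genes past the adjusted p of 0.05 after HHT in each bin, higher drawn upward and lower drawn downward. After HHT 61.9% of the shortest bin fell and 77.4% of the longest bin rose, and the vehicle lines are steeper at the short end (-1.14 and -0.98 in bin 1).

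The mRNAs bound by FMRP lay in heavy polysomes in both genotypes. Of a selection of 83 such mRNAs from published brain crosslinking work, 77 rose and 2 fell, with a median of 1.21 and a median coding length of 5700 bases. In the longest bin of all genes, which starts at 3555 bases, 77.4% rose, with a median of 0.67. In a narrower class of 358 genes, all with coding sequences longer than 5700 bases, 86.3% rose, with a median of 1.05. Binding by FMRP was not tested apart from length. The list median was 0.93 and 1.39 in the WT lysates and 1.04 and 1.43 in the KO lysates, so the lysates numbered 1 and 2 differed more than the genotypes did. Among the members that fell was App (-0.30 ± 0.06), the amyloid precursor protein, which did not pass in the WT lysates alone (-0.30) or the KO lysates alone (-0.28). The list shares 10 genes with the postsynaptic scaffolds and 6 with the very large ubiquitin ligases. Fmr1 itself was lower in heavy polysomes (-0.33 ± 0.12, edgeR adjusted p = 0.0382), but the call was lost when any of the 4 lysates was left out (-0.38 to -0.30) and with DESeq2 (-0.32). Its relatives Fxr1 (0.34 ± 0.11) and Fxr2 (0.20 ± 0.07) rose, and Fxr1 did not pass without WT lysate 2 (0.22). Fxr2 did not pass without WT lysate 1 (0.20), WT lysate 2 (0.19) or KO lysate 2 (0.19), and neither passed under scaling by total counts (0.17 for Fxr1 and 0.03 for Fxr2) or with limma (0.34 and 0.22).

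Whether heavy minus medium differed between genotypes depended on how the lysate numbers were treated. With lysate as the block and no further term, edgeR called 0 of 13826 genes (0.0%) between KO and WT, 548 had an unadjusted p under 0.05, and the median SE was 0.221. DESeq2 called 1 gene, Cadm2, and limma called 0. Cadm2, a synaptic adhesion protein, was at 329 and 329.8 CPM in WT medium and at 222 and 224 CPM in WT heavy polysomes. In KO it was at 251 and 203 CPM in medium and at 354 and 249 CPM in heavy polysomes. The pools of Cadm2 thus moved down in both WT lysates (-0.56 and -0.55) and up in both KO lysates (0.49 and 0.29). The KO minus WT difference was 0.95 ± 0.14 with edgeR (adjusted p = 0.242) and 0.96 ± 0.20 with DESeq2 (adjusted p = 0.0127), and over 12 other alternatives the adjusted p was between 0.0635 and 1.00. Without KO lysate 1 edgeR called 9 genes and without WT lysate 2 it called 1. Whatever part of the difference between numbers 2 and 1 the genotypes shared counts as spread in the fit without a number term. With lysate number by fraction as a further term, added after the data were seen, edgeR called 260 genes, 179 higher and 81 lower in KO, and DESeq2 called 34, 31 higher and 3 lower. Cadm2 (edgeR adjusted p = 7.3e-12, DESeq2 1.13e-10) and Bmpr2, a receptor for bone morphogenetic proteins (0.67 ± 0.07, edgeR adjusted p = 1.01e-07, DESeq2 0.000179), passed with both tools. That edgeR fit has 1 residual degree of freedom, and no label ties a lysate number to a shared day or batch across genotypes.

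Vehicle lysates, 1 per genotype, show the difference between the pools without HHT, and 7008 of 13794 genes (50.8%) differed between HHT and vehicle in heavy minus medium. The difference was higher after HHT for 3787 genes (27.5%) and lower for 3221 (23.4%), with a median of 0.12 over all genes. Scaling by total counts moved that median by 0.15 and gave 4754 higher and 2665 lower, while DESeq2 gave 2707 higher and 2907 lower and RLE size factors 3465 and 3461. The spread over genes was larger with vehicle, with interquartile ranges of 1.279 in WT and 1.128 in KO. Direction was often shared: of the 3370 genes that rose in heavy polysomes after HHT, 66.5% were positive in both vehicle lysates, beside 40.3% of all genes, and of the 3395 that fell 72.4% were negative in both, beside 47.5%. The vehicle lysates, 1 per genotype, were treated as replicates in this fit, so a difference between them counts as spread.

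Glycolytic enzymes and cytosolic chaperones had the list medians that differed most between HHT and vehicle. Of 20 glycolytic enzymes 2 rose and 6 fell in heavy polysomes after HHT (median -0.02), while their vehicle medians were 1.45 in WT and 1.27 in KO. The HHT minus vehicle difference was lower for 17 of the 20 and higher for 2 (median -1.34). Aldoc, the brain aldolase, was at 282, 333, 304 and 362 CPM in medium and at 229, 206, 234 and 256 CPM in heavy polysomes after HHT. With vehicle Aldoc was at 341 CPM in medium and 1332 CPM in heavy polysomes of WT, and at 365 and 1060.2 CPM in KO. The sides thus pointed in opposite directions, with an HHT minus vehicle difference of -2.22 ± 0.14 (edgeR adjusted p = 4.64e-09). Of 40 cytosolic chaperones 33 were lower relative to vehicle and 5 higher (median -1.25), and 18 fell and 2 rose in heavy polysomes after HHT (median -0.17). Aminoacyl-tRNA synthetases (27 of 37 lower, 2 higher, median -0.77) and splicing factors (48 of 71 lower, 4 higher, median -0.90) were also mostly lower relative to vehicle. Microtubule proteins and tubulins (23 of 36 lower, 2 higher, median -0.62), translation factors (30 of 52 lower, 10 higher, median -0.52) and motors (20 of 37 lower, 7 higher, median -0.48) had more lower than higher members. So did histone methyltransferases and demethylases (23 of 42 lower, 7 higher, median -0.40), immediate early genes (21 of 41 lower, 10 higher, median -0.36), chromatin remodelers (21 of 54 lower, 4 higher, median -0.20) and astrocyte markers (11 of 18 lower, 2 higher, median -0.62).

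A further set of lists was mostly higher relative to vehicle. Potassium channels had vehicle medians of -0.22 and -0.23, and 30 of 45 were higher and 3 lower after HHT (median 0.71). Kcnc1 was at 209 CPM in medium and 118 CPM in heavy polysomes of the WT vehicle lysate and at 236 and 161 CPM in KO, below medium in both, against above medium in all 4 HHT lysates (1.84 ± 0.14, edgeR adjusted p = 1.87e-08). Of 81 cytosolic ribosomal protein genes 63 were higher and 1 lower (median 0.75), and of 75 respiratory chain genes 58 were higher and 7 lower (median 0.91). These 2 lists lay below 0 in both treatments and nearer to 0 after HHT, as their vehicle medians were -1.12 and -0.93 for ribosomal proteins and -1.52 and -1.27 for the respiratory chain. Among the very large ubiquitin ligases 8 were higher and 5 lower (median 0.65). The largest rises relative to vehicle were Tenm1 (1.91 ± 0.37), Kcnc1, Sdk2 (1.83 ± 0.25), Id3 (1.70 ± 0.24), Grin2b (1.67 ± 0.29) and Ccdc28a (1.67 ± 0.28). The largest falls were Nap1l3 and Cbs, at -2.75 ± 0.19 each, Tuba1c (-2.71 ± 0.25), Irgm1 (-2.49 ± 0.20), Hnrnph2 (-2.48 ± 0.14) and Tnfaip2 (-2.44 ± 0.22). Tuba1c shares long stretches with other tubulin genes, so its value is uncertain.

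**Figure D5:**
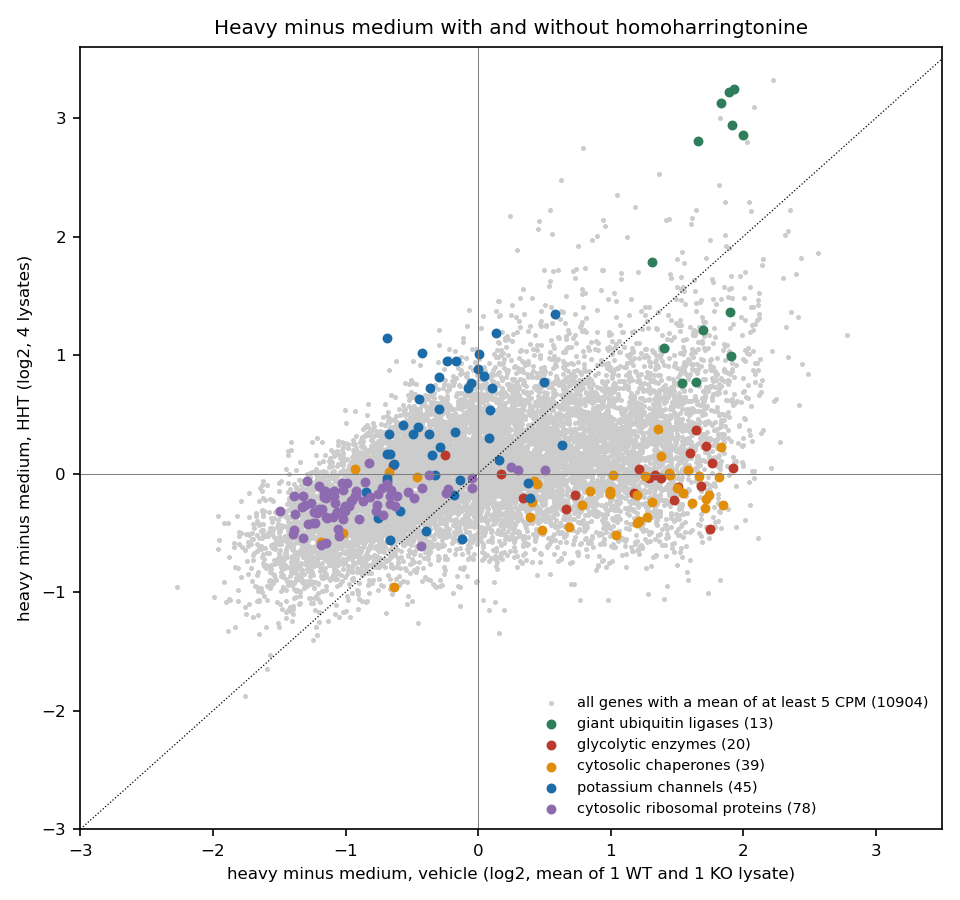
Heavy minus medium difference (log2) after HHT (4 lysates) against that with vehicle (mean of 2 lysates) for 10904 genes with a mean of at least 5 CPM, with 5 gene lists in colour and a dotted line where both are equal. Glycolytic enzymes and cytosolic chaperones lie mostly to the right near 0 on the HHT axis, and 13 giant ubiquitin ligases lie in the upper right.

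Both pools of a lysate come from the same cells, and the marker lists describe how each cell type's mRNAs were distributed between them. Heavy minus medium is taken within a lysate, so it is not a measure of the number of cells of a type or of their RNA content. Of 18 astrocyte markers 2 rose and 11 fell (median -0.32). Slc1a3, a glutamate transporter, fell by -1.15 ± 0.09, from 311 to 436 CPM in medium polysomes to 122 to 213 CPM in heavy polysomes. The gap junction gene Gja1 fell by -0.69 ± 0.08. Slc1a2 and Fgfr3 went the other way and rose, but neither passed with limma (0.30 and 0.21) or under scaling by total counts (0.10 and 0.02). The summed level of astrocyte markers overlapped between the pools, at 4933 to 5461 CPM in medium and 4051 to 5376 CPM in heavy polysomes. Of 18 microglia markers 0 rose and 10 fell (median -0.53), with sums of 126 to 166 CPM in medium and 81.3 to 119 CPM in heavy polysomes. Of 22 vessel markers 1 rose and 9 fell (median -0.38), and of 10 oligodendrocyte precursor markers 1 rose and 5 fell (median -0.34). These calls depended on the tool: with DESeq2 0 vessel markers rose and 2 fell, and 0 microglia markers rose and 6 fell. Of 14 excitatory neuron markers 7 rose and 2 fell (median 0.14, -0.03 under total counts), with Camk2a, a synaptic kinase, up by 0.50 ± 0.07. Of 17 inhibitory neuron markers 4 rose and 5 fell (median -0.14), and of 19 oligodendrocyte markers 3 rose and 5 fell (median -0.06). Over all genes tested 24.4% rose and 24.6% fell. The inhibitory neuron markers (23.5% and 29.4%) lay near those shares. Of 9 choroid plexus and ependymal markers 2 rose and 4 fell (median -0.48), of 4 blood cell markers 0 rose and 2 fell, and of 17 thalamus and striatum markers 2 rose and 5 fell (median -0.10).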

How the data were processed

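Total RNA of medium and heavy polysome pools was sequenced, per the labels' protocols, with a directional kit. The submitters' processing notes list mm10 and, with no roles given, RSEM 1.2.11, Bowtie2 2.1.0, DESeq2 1.16.1 and Trimmomatic 0.32. The deposited count table was taken as estimated counts (expected counts) for 13973 genes, but 0 of 251514 values are whole within 1e-06. Whether the values were rescaled before deposit is not given in sources used here. The fits treat the rounded values as counts, so their SEs and calls rest on that. A second deposited table is a score: the authors name it TPM, but 10 of its 18 columns sum to over 1000000, so it served in an alternative only. The count table equals it times a factor per gene and a factor per library in 100% of values (within 1%), so that alternative holds no independent measurement. For gene selection and batch adjustment, methods are not given in sources used here.

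After rounding of the counts, edgeR 4.0.16 (R 4.3.3) was run with TMM scaling, its low-count filter by fraction and the quasi-likelihood F-test. Lysate was a block, since medium and heavy of 1 number within a genotype share a lysate. That fit had 8 libraries and 3 residual degrees of freedom. KO minus WT used the same libraries (2 residual degrees of freedom), and HHT minus vehicle 12 libraries (4). Deviations of the 2 pools of a lysate correlated over genes by r = 0.08 in WT and 0.024 in KO. Tests were 2-sided and adjusted by Benjamini-Hochberg over all genes tested at 0.05. The procedure was also run on simulated counts with few changed genes and no difference between lysates. That setting is unlike these data, so it does not measure error rates here. SE is the difference divided by the square root of F. CPM values are TMM-scaled over the 12 medium and heavy libraries, and differences within a lysate use CPM + 0.5. Coding lengths come from GENCODE M21, in which 13883 genes matched, 470 of them through an older symbol.

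Genes were named by rule: the 12 largest rises and 12 largest falls among calls with a mean of at least 5 CPM, 1 sign in all 4 lysates, no overlap and no predicted gene model; up to 4 members of each of 45 lists by smallest adjusted p and up to 2 against its median; Fmr1, Fxr1, Fxr2 and Setd2; and up to 6 in each direction for HHT minus vehicle (3 by smallest p for KO minus WT). The comparison, lists and rule were chosen with earlier results of these data known. Alternatives were DESeq2 1.42.0, limma 3.58.1 on log2(rescaled TPM + 1), 2 other scalings, 2 other filters, no block, subsets of lysates, leaving out each lysate and, added after seeing the data, lysate number as a further term for KO minus WT. Input libraries were not used in the main fits. The values of 1 member of the list of FMRP-bound mRNAs are not reported here.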

Additional observations from a re-analysis of the deposited data

Results flagged for a closer look

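Heavy minus medium differed between HHT and vehicle for 7008 genes. Of the genes with the largest differences within HHT lysates, some were further apart than with vehicle: Ubr4 by 1.32, Birc6 by 1.29, Herc1 by 1.28, Pclo by 1.17, Ryr2 by 1.16, Huwe1 by 1.15, Dync1h1 by 1.09, Herc2 by 1.03, Mycbp2 by 0.85, Trrap by 0.76 and Vps13d by 0.61. Sdk2 stood 1.83 higher than with vehicle. All these genes were picked for a large rise after HHT, which by itself favours values above vehicle, so their excess is no independent support. Arglu1 and Wbp5, which fell after HHT, lay 0.59 ± 0.24 and 0.58 ± 0.20 higher than with vehicle. Timp3 (-0.76) and Slc25a18 (-1.50) were lower than with vehicle, and the vehicle differences of Slc25a18, a mitochondrial glutamate carrier, were 0.14 and 0.17. Timp3 and Slc25a18 were picked for a large fall after HHT. That by itself favours values below vehicle, so their distance from vehicle is no independent support either. Fxr1 (-0.99), Fxr2 (-0.48) and Setd2 (-0.54) were lower than with vehicle.

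In 5 of 275 lists and genes examined, 1 of the 4 lysates stood far from the other 3, and chance gives about 1 in 20. KO lysate 2 gave -0.35 for the median of splicing factors (the others -0.19 to -0.17), -1.02 for Dars (the others -0.71 to -0.65) and 0.96 for Uggt1 (the others 0.44 to 0.51). WT lysate 1 gave -0.73 for Folr1 (the others -1.36 to -1.32) and 0.54 for Pde10a (the others 0.81 to 0.82).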

How the results depend on the processing

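No named gene past the threshold changed direction under any alternative run, and over all genes 0 to 6 of the 6765 calls did so per alternative, 6 of them under total counts. Of 230 named genes past the threshold in heavy minus medium, 40 lost the call under at least 1 alternative, 20 of them when 1 lysate was left out, and of 12 for HHT minus vehicle 2 did. Under total counts 2173 genes were higher and 5393 lower in heavy polysomes (28.7% of calls higher, against 49.8% with TMM), since that scaling shifts all genes down. With WT lysates alone 2198 genes were lower, and with the lysates numbered 1 alone 2019; with those numbered 2 alone it was 3074. Without the replicate block, and so without the pairing by lysate, 6389 genes differed in the same 8 libraries, and 5001 in a fit of 12 group means over 18 libraries, against 6765. KO minus WT gave 1 gene with DESeq2 and 0 to 9 when 1 lysate was left out, 9 without KO lysate 1. With lysate number by fraction as a further term, chosen after seeing the data, edgeR gave 260 and DESeq2 34; the shift between numbers correlated between WT and KO over genes by r = 0.159. For HHT minus vehicle total counts gave 64.1% of calls higher, against 54.0%, DESeq2 48.2%, RLE size factors 50.0% and the 12 group means 49.8%, so which direction held more calls was not stable. The medians of 41 lists moved beyond their spread under total counts. With 2 lysates per genotype and 1 vehicle lysate each, precision between genotypes and treatments is limited, and leaving out a lysate leaves a genotype with 1, assumed to vary like the other.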

Other observations

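Some genes went against the order of coding length, and these were chosen after their values were seen. Of 2842 genes with a longest coding sequence under 1000 bases and a mean of at least 5 CPM, 122 rose in heavy polysomes and 88 of them did so without overlap between the pools. Tmem178b, a membrane protein, rose by 1.42 ± 0.09, Bcl2, which restrains cell death, by 0.98 ± 0.10 and Efna5, a guidance ligand, by 0.88 ± 0.10. Syngr1, a synaptic vesicle protein, rose by 0.75 ± 0.08, Igfbp5, a growth factor binding protein, by 0.75 ± 0.08 and the transcription factor Klf13 by 0.68 ± 0.06. With vehicle Bcl2 (-0.40 and -0.04), Efna5 (-0.78 and -0.57), Syngr1 (-0.30 and -0.16), Igfbp5 (-0.15 and -0.23) and Klf13 (-0.16 and -0.10) lay below 0 in both lysates. Tmem178b (0.13 and 0.37) lay above 0 in both. These genes were picked for a rise after HHT, which by itself favours lower values with vehicle. Of 852 genes with coding sequences over 4000 bases, 4 fell: the myosin heavy chains Myh7b (-0.48 ± 0.12) and Myh7 (-0.38 ± 0.11), the protease Pcsk5 (-0.32 ± 0.09) and Rltpr (-0.30 ± 0.08).

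Of 273 long noncoding RNAs measured, 15 (5.5%) rose in heavy polysomes, beside 24.4% of all genes, and 62 (22.7%) fell, beside 24.6%. Their median was -0.19, and with vehicle their medians were -0.61 in WT and -0.51 in KO.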
